A study of Mus musculus with 24 samples.

Results

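The 10 genes described here code for tenascins (Tnc, Tnn, Tnxb), thrombospondins (Thbs1, Thbs2) and other secreted proteins of the pericellular matrix (Postn, Sparc, Fn1, Smoc1, Smoc2). They were taken by symbol from 25385 genes in RNA-seq files of mouse marrow-derived mesenchymal stem cells (MSC), stromal cells of the bone marrow that can be driven towards bone-forming or fat-storing cells. The 24 libraries formed 8 groups of 3. VD3-treated and vehicle cells were compared in undifferentiated cultures without differentiation medium (day 0), in osteogenic medium (beta-glycerophosphate and ascorbic acid) on days 7 and 15, and in adipogenic medium (insulin, indomethacin and dexamethasone) on day 7. VD3 is 1,25(OH)2D3, the active hormone made from vitamin D, which acts through the nuclear receptor Vdr; it was given at 100 nM for 24 h before RNA was taken, and vehicle cells received ethanol. All groups came from cryopreserved mouse cells expanded for at most 10 passages, and ribosomal RNA was depleted before directional libraries were made.

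Matricellular proteins sit in the extracellular matrix and act mainly by binding cell-surface receptors, growth factors and proteases, more than as fibres of the scaffold. Tenascins are large multimers that loosen the hold of fibronectin on cells. Thrombospondins bind CD36, CD47, integrins and, for Thbs1, latent TGF-beta. Periostin, SPARC and the SMOC proteins act on collagen assembly, integrins and growth factor signals. In bone, several of them lie in periosteum, stroma or osteoid, and fibronectin is an early matrix onto which collagen is laid.

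Estimated depth ranged over 7.09 to 46.2 M reads by library. The label of the differentiated cells was checked with markers: the summed level of 8 osteoblast markers was 544 to 569 RPKM (reads per kilobase of transcript and per M reads) in osteogenic day 7 vehicle libraries against 30.2 to 37.7 RPKM at day 0, and that of 8 adipocyte markers was 31200 to 33300 RPKM in adipogenic vehicle libraries against 328 to 358 RPKM at day 0. The osteoblast sum was also above day 0 in adipogenic vehicle libraries, at 122 to 144 RPKM. The marrow stromal markers Pdgfra (70.4 RPKM) and Cxcl12 (943 RPKM) were present in day 0 vehicle cells, whereas Thy1 and Eng averaged at most 1.06 and 1.55 RPKM in any group. In 5 of the 6 day 0 libraries, with 7.09 to 10.98 M reads, the median of 1494 sensory receptor genes, which such cells are not known to use, was 3.38 to 4.94 RPKM. It was 0.457 RPKM in VD3-treated day 0 replicate 2, with 38.33 M reads, and 0.208 to 1.3 RPKM in the 18 osteogenic and adipogenic libraries. Comparisons with day 0 are limited for genes of a few RPKM, which touches Tnn, Tnxb and Smoc1, and Tnc in VD3-treated day 0 cells.

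Across the 8 groups the genes ranged from Sparc, at a mean of 1735 RPKM in VD3-treated osteogenic day 7 cells, to Tnxb, which had 0.110 to 0.890 RPKM in all 24 libraries. Tnxb codes for tenascin-X, a tenascin of loose connective tissue that binds collagen fibrils. It stayed under the filter of 1 RPKM in at least 3 libraries and was not tested, and neighbouring groups in its order of levels overlapped. Its VD3 and vehicle libraries did not overlap at day 0 (0.270 to 0.521 with VD3, 0.642 to 0.890 RPKM with vehicle). Nor did they on adipogenic day 7 (0.463 to 0.767 with VD3, 0.178 to 0.291 RPKM with vehicle). All these Tnxb values lay under the sensory receptor medians of their own libraries. The other 9 genes passed the filter. Values below are RPKM in replicates 1, 2 and 3, and a log2 difference is on the log2(RPKM + 1) scale, which understates the change of low genes. A gene is said to rise or fall where its adjusted p in limma, over 21097 genes, was below 0.05. Whether the 3 replicates of a group were separate cultures is not stated in the labels, and p-values then cover only the spread between these libraries. With no undifferentiated library of day 7 or 15, medium and time in culture cannot be told apart in the comparisons with day 0. In these bulk cultures, fewer cells of a type and less RNA per cell cannot be told apart.

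**Figure D1:**
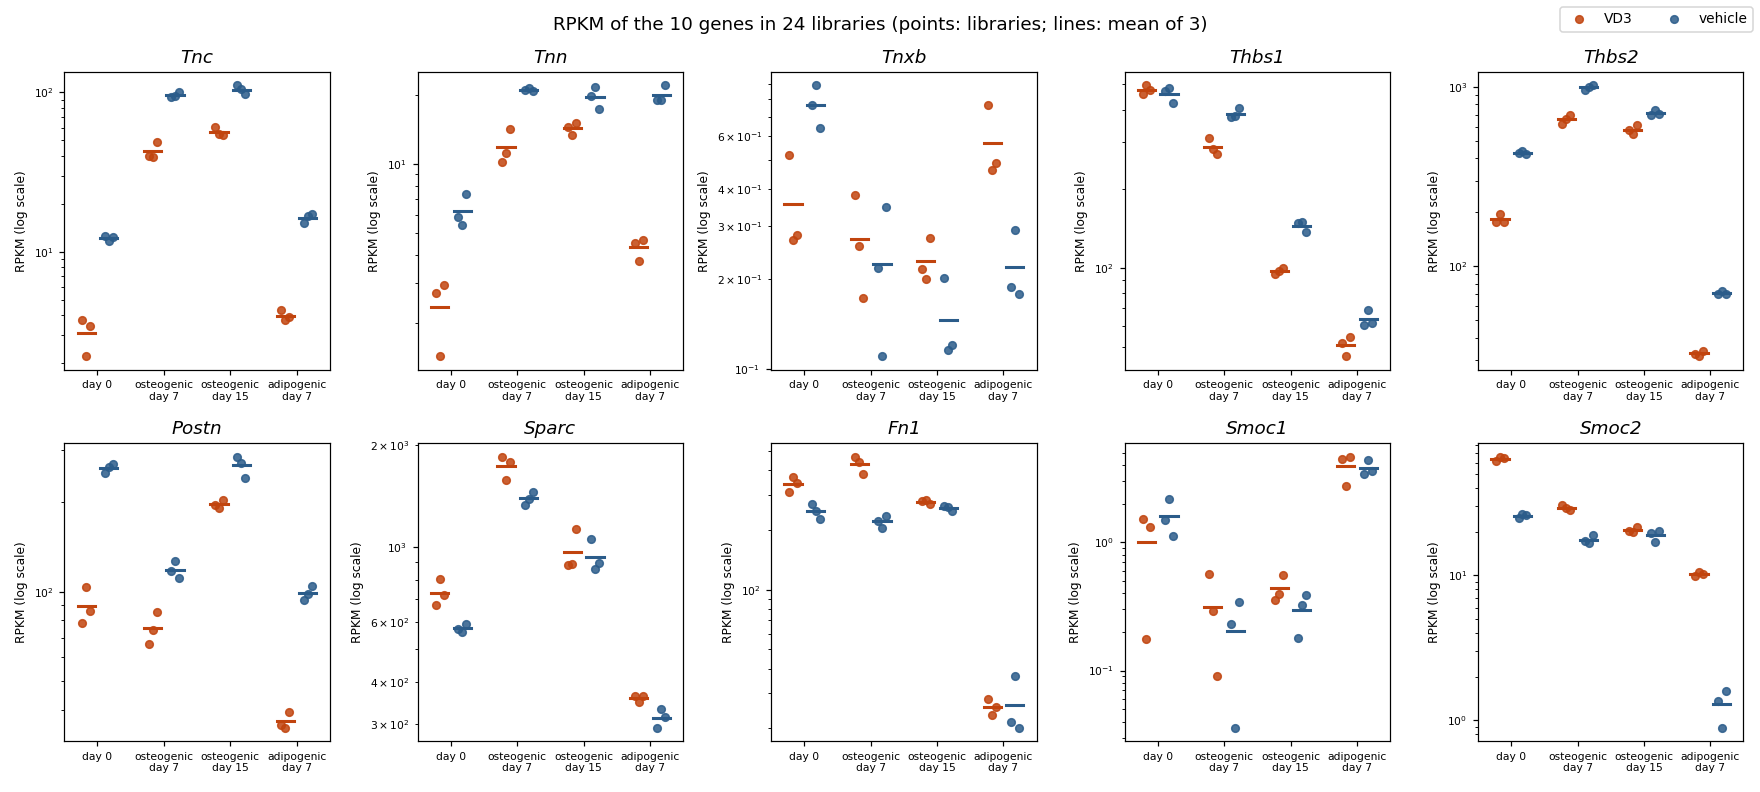
RPKM of each of the 10 genes (vertical axis, log scale, its own range in each panel) in 24 libraries by state, with VD3-treated libraries left of vehicle libraries in each state; points are libraries and lines are means of 3. Tnc, Thbs2 and Postn lie lower with VD3 in all 4 states without overlap, and Smoc2 lies higher with VD3 at day 0, on osteogenic day 7 and on adipogenic day 7.

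Tenascin-C (Tnc) is a hexameric tenascin made at sites of matrix remodelling, including bone surfaces. It was lower with VD3 in every state and much higher in osteogenic than in undifferentiated cells. At day 0 it had 3.71, 2.21 and 3.41 RPKM with VD3 and 12.6, 11.7 and 12.4 RPKM with vehicle. On osteogenic day 7 it had 40.1, 39.1 and 49.0 RPKM with VD3 and 94.1, 94.6 and 101 RPKM with vehicle. The groups did not overlap in either state, and the 3 treated libraries of day 7 still lay above every day 0 library. On osteogenic day 15, Tnc had 61.0, 54.5 and 54.0 RPKM with VD3 and 111, 104 and 97.4 RPKM with vehicle. On adipogenic day 7 it had 4.32, 3.71 and 3.87 RPKM with VD3 and 15.2, 16.8 and 17.2 RPKM with vehicle. The treated libraries were again all below the vehicle ones. Tnc fell with VD3 at day 0 (log2 difference -1.71, SE 0.113, adjusted p = 3.62e-10), on osteogenic day 7 (log2 difference -1.16, SE 0.113, adjusted p = 3.44e-07), on osteogenic day 15 (log2 difference -0.87, SE 0.113, adjusted p = 0.000104) and on adipogenic day 7 (log2 difference -1.81, SE 0.113, adjusted p = 4.99e-10). The call of day 15 was lost when each library's background was subtracted (-0.88, adjusted p = 0.107). At day 0, replicates 1 and 3 with VD3 lay close to the sensory receptor medians of their own libraries, 4.45 and 3.38 RPKM.

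Without VD3, Tnc rose in osteogenic medium by day 7 (log2 difference 2.88, SE 0.113, adjusted p = 3.27e-14) and was likewise higher on day 15 than at day 0 (log2 difference 2.99, SE 0.113, adjusted p = 7.08e-15). The difference of day 15 from day 7 did not pass (0.11, 95% interval -0.115 to 0.33), and the vehicle libraries of these days overlapped. Among VD3-treated cells the same difference passed (0.40, adjusted p = 0.0162). In adipogenic medium Tnc rose slightly against day 0 (0.39, adjusted p = 0.00379) and lay far below osteogenic day 7 (-2.49, adjusted p = 1.67e-14).

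Tenascin-N, or tenascin-W (Tnn), is a tenascin known from developing bone, periosteum and stem cell niches. It went with Tnc in its fall with VD3, and its levels in adipogenic and osteogenic vehicle cells overlapped, unlike those of Tnc. In undifferentiated cells Tnn had 2.72, 1.44 and 2.96 RPKM with VD3 and 5.84, 5.40 and 7.37 RPKM with vehicle. In osteogenic cells of day 7 Tnn had 10.1, 11.2 and 14.2 RPKM with VD3 and 21.0, 21.5 and 20.7 RPKM with vehicle. The treated libraries lay below the vehicle ones in both states. In osteogenic cells of day 15 Tnn had 14.6, 13.3 and 15.0 RPKM with VD3 and 19.8, 21.7 and 17.4 RPKM with vehicle. In adipogenic cells Tnn had 4.49, 3.76 and 4.66 RPKM with VD3 and 19.1, 19.0 and 22.1 RPKM with vehicle. The 3 vehicle groups of differentiated cells overlapped with each other at 17.4 to 22.1 RPKM, and the widest gap between treated and vehicle cells was the adipogenic one. Tnn fell with VD3 on adipogenic day 7 (log2 difference -1.99, SE 0.151, adjusted p = 9.98e-09), at day 0 (log2 difference -1.12, SE 0.151, adjusted p = 1.72e-05) and on osteogenic day 7 (log2 difference -0.79, SE 0.151, adjusted p = 0.00165). The difference on osteogenic day 15 was -0.43 (95% interval -0.723 to -0.13) and did not pass over all genes (adjusted p = 0.433), although the libraries did not overlap. The day 0 values with VD3 lay near or under the sensory receptor medians of their libraries, except in replicate 2, and the day 0 call was lost in a fit of the day 0 libraries alone (adjusted p = 0.0614). Against day 0, Tnn rose in vehicle cells on osteogenic day 7 (1.62, adjusted p = 4.76e-08), on osteogenic day 15 (1.52, adjusted p = 5.69e-08) and on adipogenic day 7 (1.55, adjusted p = 1.19e-08). Adipogenic and osteogenic day 7 vehicle cells differed by -0.07 (95% interval -0.369 to 0.223, adjusted p = 0.782), a sign that turned under median-ratio rescaling (0.12) and quantile normalization (0.10). Among VD3-treated cells Tnn was lower in adipogenic cells (-1.27, adjusted p = 2.79e-07).

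Thrombospondin-1 (Thbs1) is a trimeric glycoprotein that activates latent TGF-beta and, through CD36 and CD47, acts on vessels and other cells. It was highest in undifferentiated cells and declined along the osteogenic course. Day 0 cells had 458, 495 and 474 RPKM of Thbs1 with VD3 and 472, 483 and 426 RPKM with vehicle, and these groups overlapped. Osteogenic day 7 cells had 312, 284 and 270.5 RPKM of Thbs1 with VD3 and 375, 378 and 406 RPKM with vehicle. Osteogenic day 15 cells had 94.7, 97.0 and 99.5 RPKM of Thbs1 with VD3 and 148, 149 and 136 RPKM with vehicle. In both osteogenic states the treated libraries lay below the vehicle ones. Adipogenic day 7 cells had 51.8, 45.9 and 54.5 RPKM of Thbs1 with VD3 and 60.3, 69.2 and 61.6 RPKM with vehicle, the lowest levels of the study for this gene. In vehicle cells Thbs1 fell on osteogenic day 15 against osteogenic day 7 (log2 difference -1.42, SE 0.0804, adjusted p = 3.6e-11), on osteogenic day 15 against day 0 (-1.67, adjusted p = 3.61e-13) and on adipogenic day 7 against day 0 (log2 difference -2.83, SE 0.0804, adjusted p = 6.01e-18). Its small fall on osteogenic day 7 against day 0 (-0.25, adjusted p = 0.00976) turned under median-ratio rescaling (0.18, adjusted p = 0.262).

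VD3 left no detectable difference in Thbs1 at day 0 (0.05, 95% interval -0.108 to 0.207, adjusted p = 0.668). Thbs1 fell with VD3 on osteogenic day 7 (log2 difference -0.42, SE 0.0804, adjusted p = 0.00171), on osteogenic day 15 (log2 difference -0.57, SE 0.0804, adjusted p = 0.000274) and on adipogenic day 7 (log2 difference -0.32, SE 0.0804, adjusted p = 0.0341). The osteogenic day 7 call was lost under quantile normalization (-0.28, adjusted p = 0.101) and in a fit of those libraries alone (adjusted p = 0.0891). The day 15 call was lost under median-ratio rescaling (-0.56, adjusted p = 0.109). The adipogenic call was lost without adipogenic vehicle replicate 2 (-0.26, adjusted p = 0.241) or 3 (-0.34, adjusted p = 0.0694), without adipogenic VD3 replicate 1 (-0.34, adjusted p = 0.0805) or 2 (-0.25, adjusted p = 0.272), and in 5 other alternatives.

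Thrombospondin-2 (Thbs2) lacks the TGF-beta-activating sequence of Thbs1 and is known for binding matrix metalloproteinases and for its part in collagen fibril assembly. No neighbouring groups overlapped in its order of levels, which ran from 32.6 ± 1.14 RPKM in VD3-treated adipogenic cells to 993.8 ± 28.3 RPKM in osteogenic day 7 vehicle cells (SD, n = 3 each). VD3-treated day 0 cells had 177, 195 and 176 RPKM, against 429, 437 and 421 RPKM in vehicle cells. VD3-treated osteogenic day 7 cells had 624, 663 and 696 RPKM, against 963, 1001 and 1018 RPKM in vehicle cells. The treated libraries were lower in both states. VD3-treated osteogenic day 15 cells had 575, 546 and 609 RPKM, against 697, 738 and 702 RPKM in vehicle cells. VD3-treated adipogenic day 7 cells had 32.6, 31.5 and 33.8 RPKM, against 70.3, 72.5 and 69.9 RPKM in vehicle cells. Treated and vehicle libraries did not overlap here either. Thbs2 fell with VD3 at day 0 (log2 difference -1.23, SE 0.0662, adjusted p = 1.31e-11), on adipogenic day 7 (log2 difference -1.10, SE 0.0662, adjusted p = 2.57e-10), on osteogenic day 7 (log2 difference -0.59, SE 0.0662, adjusted p = 2.66e-06) and by least on osteogenic day 15 (log2 difference -0.31, SE 0.0662, adjusted p = 0.0243). Its day 15 call was lost in 5 alternatives, among them median-ratio rescaling (-0.30, adjusted p = 1.0), and on leaving out day 15 vehicle replicate 1, 2 or 3 (adjusted p = 0.064, 0.139 and 0.0747) or day 15 VD3 replicate 1 or 2 (adjusted p = 0.112 and 0.165). In vehicle cells Thbs2 rose on osteogenic day 7 (log2 difference 1.21, SE 0.0662, adjusted p = 9.2e-12) and day 15 (0.73, adjusted p = 1.41e-08) against day 0, fell on day 15 against day 7 (-0.48, adjusted p = 1.9e-05) and fell on adipogenic day 7 against day 0 (log2 difference -2.58, SE 0.0662, adjusted p = 1.15e-18).

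Periostin (Postn) is a matricellular protein of periosteum and other collagen-rich tissue that aids collagen crosslinking by way of Bmp1 and lysyl oxidase. In vehicle cells it was high at day 0, lower on osteogenic day 7 and high again on day 15. Its levels at day 0 were 78.6, 104 and 86.3 RPKM with VD3 and 251, 263 and 269 RPKM with vehicle. Its levels on osteogenic day 7 were 66.7, 74.5 and 85.1 RPKM with VD3 and 118, 127 and 111 RPKM with vehicle. In both states the groups were apart. Its levels on osteogenic day 15 were 197, 192 and 203 RPKM with VD3 and 285, 272 and 242 RPKM with vehicle. Its levels on adipogenic day 7 were 35.5, 34.8 and 39.4 RPKM with VD3 and 93.4, 98.3 and 104 RPKM with vehicle. Every treated library lay below every vehicle library of its own state. Postn fell with VD3 at day 0 (log2 difference -1.54, SE 0.099, adjusted p = 2.36e-10), on adipogenic day 7 (log2 difference -1.41, SE 0.099, adjusted p = 3.04e-09), on osteogenic day 7 (log2 difference -0.65, SE 0.099, adjusted p = 0.000151) and on day 15 (log2 difference -0.43, SE 0.099, adjusted p = 0.0398). The day 15 call was lost in 5 alternatives, among them median-ratio rescaling (-0.42, adjusted p = 0.901). Leaving out day 15 libraries also ended it: vehicle replicate 1 (-0.38, adjusted p = 0.286) or 2 (-0.41, adjusted p = 0.152) and VD3 replicate 1, 2 or 3 (adjusted p = 0.163, 0.177 and 0.089). So did leaving out, with adjusted p of 0.0505 to 0.0547, day 0 vehicle replicate 2, day 0 VD3 replicate 3, osteogenic day 7 vehicle replicate 1, adipogenic vehicle replicate 1 or 2 or adipogenic VD3 replicate 1.

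The dip and return of Postn passed in vehicle cells: it fell on osteogenic day 7 against day 0 (log2 difference -1.14, SE 0.099, adjusted p = 1.67e-08) and rose on day 15 against day 7 (log2 difference 1.16, SE 0.099, adjusted p = 2.28e-08). The difference of day 15 from day 0 did not pass (0.03, 95% interval -0.169 to 0.219, adjusted p = 0.83), but passed as a rise under median-ratio rescaling (0.42, adjusted p = 0.0372). Among VD3-treated cells the difference of osteogenic day 7 from day 0 was -0.24 (adjusted p = 0.0557), or -0.46 with day 0 VD3 replicate 2 as the only treated day 0 library, which passed (adjusted p = 0.0231). In these cells Postn rose on day 15 against day 0 (1.14, adjusted p = 6.43e-09). On adipogenic day 7 it fell against day 0 (-1.40, adjusted p = 5.43e-11). Its fall against osteogenic day 7 (-0.26, adjusted p = 0.0421) was lost under 3 alternatives, among them median-ratio rescaling (-0.057, adjusted p = 0.828), and without osteogenic vehicle replicate 1 or 2 (adjusted p = 0.0827 and 0.165) or adipogenic vehicle replicate 1 or 2 (adjusted p = 0.153 and 0.0873).

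The promoters of genes lower with VD3 in at least 3 of the 4 states are shown because these genes fell with VD3 in most states. Tnc, Tnn, Thbs1, Thbs2 and Postn met this, and RefSeq's promoter table (GRCm38.p6, 250 bases before to 50 after the start) matched 6 of the 10 genes, among them Tnc, Tnn, Thbs2 and Postn; of several starts the one furthest downstream was taken. The windows are chr4:64046887-64047186 on the minus strand for Tnc, chr1:160153526-160153825 on the minus strand for Tnn, chr17:14694213-14694512 on the minus strand for Thbs2 and chr3:54360857-54361156 on the plus strand for Postn, each written 5′ to 3′ on the gene's strand. This is another build than that of the deposited values, which were matched by symbol. Capitals mark every match to the letters searched on both strands.
Tnc: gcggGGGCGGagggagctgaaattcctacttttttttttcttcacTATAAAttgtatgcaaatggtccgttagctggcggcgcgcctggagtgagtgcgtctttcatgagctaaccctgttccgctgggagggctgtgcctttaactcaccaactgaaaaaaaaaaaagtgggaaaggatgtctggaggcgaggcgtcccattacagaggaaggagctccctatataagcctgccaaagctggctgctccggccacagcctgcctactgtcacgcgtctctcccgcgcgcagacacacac
Tnn: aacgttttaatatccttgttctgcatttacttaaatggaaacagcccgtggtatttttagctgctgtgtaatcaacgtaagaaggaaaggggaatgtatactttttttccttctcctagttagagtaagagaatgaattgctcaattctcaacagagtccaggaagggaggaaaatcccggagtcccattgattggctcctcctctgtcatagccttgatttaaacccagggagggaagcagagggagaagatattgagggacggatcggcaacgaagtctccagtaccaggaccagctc
Thbs2: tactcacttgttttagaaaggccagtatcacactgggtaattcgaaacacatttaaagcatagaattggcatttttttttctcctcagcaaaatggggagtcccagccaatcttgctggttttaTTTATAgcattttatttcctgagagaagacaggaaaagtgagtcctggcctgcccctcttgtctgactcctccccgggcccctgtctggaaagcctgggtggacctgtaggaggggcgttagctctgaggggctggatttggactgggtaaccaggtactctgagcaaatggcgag
Postn: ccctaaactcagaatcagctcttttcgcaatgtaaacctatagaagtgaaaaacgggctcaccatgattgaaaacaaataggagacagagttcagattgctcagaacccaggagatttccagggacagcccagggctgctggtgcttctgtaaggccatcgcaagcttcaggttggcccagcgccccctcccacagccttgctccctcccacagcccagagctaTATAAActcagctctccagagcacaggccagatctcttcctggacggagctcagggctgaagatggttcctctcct
The letters searched were the core promoter box TATAAA, the Sp1 box GGGCGG, the AP-1 site with any base in its middle, and a pair of direct repeats with a spacer of 3 bases, of the kind bound by Vdr with Rxr (the DR3 forms of the osteopontin gene and of the consensus half-site); no match overlapped another. Postn held TATAAA at -26 from its start, Tnc held it at -205 with GGGCGG at -246, and Thbs2 held it on the opposite strand at -126. Only exact letters were searched. The similar tatataa of Tnc, which lies between -205 and its start, was therefore not a match and is not marked. Tnn held none of these letters. Of 32851 promoters of the same length, 13.6% held TATAAA, 35.7% GGGCGG, 7.81% the AP-1 site and 0.00609% each direct repeat. A match describes letters and is not a site of binding, and no match says only that these letters are not in the window.

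SPARC (osteonectin) is a collagen- and calcium-binding protein abundant in bone. It was high in every group, peaked on osteogenic day 7 and was lowest in adipogenic cells. Sparc levels at day 0 were 675, 804 and 721 RPKM with VD3 and 574, 562 and 593 RPKM with vehicle. Sparc levels on osteogenic day 7 were 1848, 1579 and 1779 RPKM with VD3 and 1331, 1383 and 1457 RPKM with vehicle. Treated libraries lay above vehicle libraries in both states. Sparc levels on osteogenic day 15 were 886, 890.1 and 1128 RPKM with VD3 and 1053, 860.0 and 895 RPKM with vehicle, which overlapped. Sparc levels on adipogenic day 7 were 362, 348 and 363 RPKM with VD3 and 293, 333 and 315 RPKM with vehicle, with every treated library above every vehicle one. Sparc rose with VD3 at day 0 (log2 difference 0.34, SE 0.0977, adjusted p = 0.0221). Leaving out day 0 vehicle replicate 1 or 2 ended that call (adjusted p = 0.0541 and 0.0696), as did leaving out day 0 VD3 replicate 2 (0.28, adjusted p = 0.145) and quantile normalization (0.12, adjusted p = 0.536). The difference on osteogenic day 7 was 0.32 (95% interval 0.126 to 0.509, adjusted p = 0.0651) and passed under quantile normalization (0.49, adjusted p = 0.00546), at a filter of 5 RPKM (adjusted p = 0.0434), without osteogenic day 7 VD3 replicate 2 (0.38, adjusted p = 0.0359), without osteogenic day 15 vehicle replicate 1 (adjusted p = 0.0467) and without osteogenic day 15 VD3 replicate 3 (adjusted p = 0.0304). On osteogenic day 15 it was 0.04 (95% interval -0.147 to 0.237) and on adipogenic day 7 0.19 (95% interval -0.00114 to 0.382). In vehicle cells Sparc rose against day 0 on osteogenic day 7 (log2 difference 1.27, SE 0.0977, adjusted p = 2.48e-09) and day 15 (0.69, adjusted p = 6.43e-06) and fell on adipogenic day 7 (-0.88, adjusted p = 9.97e-08). The last call was lost under median-ratio rescaling (-0.24, adjusted p = 0.165).

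Fibronectin (Fn1) is the dimeric glycoprotein onto which tenascins, thrombospondins and collagen assemble and which cells hold through integrins. Its largest differences were those of adipogenic cells, which held far less Fn1 than undifferentiated or osteogenic cells. The level of Fn1 at day 0 was 313, 369 and 347 RPKM with VD3 and 272, 249 and 228 RPKM with vehicle. The level of Fn1 on osteogenic day 7 was 469, 441 and 384 RPKM with VD3 and 222, 206 and 236 RPKM with vehicle. Treated libraries lay above vehicle libraries in both states, with the wider gap on osteogenic day 7. In limma the VD3 difference did not pass as unlike between these states (0.50, adjusted p = 0.165). It passed without adipogenic vehicle replicate 2 (adjusted p = 0.0461). The level of Fn1 on osteogenic day 15 was 279, 284 and 271 RPKM with VD3 and 265, 262 and 251 RPKM with vehicle, and the treated libraries again lay above the vehicle ones. The level of Fn1 on adipogenic day 7 was 28.2, 23.3 and 25.5 RPKM with VD3 and 21.5, 36.7 and 20.2 RPKM with vehicle, which overlapped. Fn1 fell in adipogenic vehicle cells against day 0 (log2 difference -3.25, SE 0.144, adjusted p = 1.41e-14) and against osteogenic day 7 (-3.08, adjusted p = 2.67e-14). It rose with VD3 on osteogenic day 7 (log2 difference 0.96, SE 0.144, adjusted p = 0.00013) and at day 0 (log2 difference 0.46, SE 0.144, adjusted p = 0.0371). The day 0 call ended on leaving out day 0 vehicle replicate 2 (0.46, adjusted p = 0.0838) or 3 (0.39, adjusted p = 0.134) or day 0 VD3 replicate 2 (0.40, adjusted p = 0.17) or 3 (0.45, adjusted p = 0.0613), and under 3 other alternatives. On osteogenic day 15 the difference was 0.10 (95% interval -0.181 to 0.385) and on adipogenic day 7 0.02 (95% interval -0.26 to 0.306). Between osteogenic and undifferentiated vehicle cells the differences of day 7 (-0.17, 95% interval -0.453 to 0.113) and day 15 (0.06, 95% interval -0.225 to 0.341) did not pass, while that of day 15 passed as a rise under median-ratio rescaling (0.45, adjusted p = 0.0369). The sign of the day 7 difference turned under median-ratio rescaling (0.26) and that of day 15 under quantile normalization (-0.084).

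SMOC2 is a calcium-binding relative of SPARC that acts on growth factor and integrin signals. Smoc2 rose with VD3 in 3 states, in each of which Tnc, Tnn and Thbs2 fell. The day 0 values were 61.3, 66.0 and 64.3 RPKM with VD3 and 25.1, 26.6 and 26.1 RPKM with vehicle. The osteogenic day 7 values were 30.5, 29.0 and 28.4 RPKM with VD3 and 17.2, 16.7 and 19.1 RPKM with vehicle. Treated libraries lay above all vehicle libraries in both states. The osteogenic day 15 values were 20.2, 19.9 and 21.6 RPKM with VD3 and 19.5, 17.0 and 20.2 RPKM with vehicle, which overlapped. The adipogenic day 7 values were 9.89, 10.6 and 10.3 RPKM with VD3 and 1.37, 0.893 and 1.60 RPKM with vehicle. The adipogenic vehicle libraries were near 1 RPKM and the treated ones near 10 RPKM. Smoc2 rose with VD3 on adipogenic day 7 (log2 difference 2.31, SE 0.0957, adjusted p = 4.78e-13), at day 0 (log2 difference 1.27, SE 0.0957, adjusted p = 2.81e-09) and on osteogenic day 7 (log2 difference 0.70, SE 0.0957, adjusted p = 3.46e-05). These 3 calls held in every alternative and without each library in turn. Its day 15 difference was 0.12 (95% interval -0.0689 to 0.306). In vehicle cells Smoc2 fell on adipogenic day 7 against day 0 (log2 difference -3.57, SE 0.0957, adjusted p = 2.3e-18) and against osteogenic day 7 (-3.04, adjusted p = 2.51e-17). Its smaller falls against day 0 on osteogenic day 7 (-0.53, adjusted p = 0.000105) and day 15 (-0.44, adjusted p = 0.000419) were lost under median-ratio rescaling (-0.12, adjusted p = 0.44, and -0.062, adjusted p = 0.692), and that of day 15 also with background subtraction (-0.22, adjusted p = 0.0939). In RefSeq's gene order Smoc2 and Thbs2 lie on chromosome 17 with 0 protein-coding genes between them, and in 3 states they moved in opposite directions under VD3.

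SMOC1, the other SMOC protein, is known to act on BMP signals in development. Smoc1 stayed under 5 RPKM in all 24 libraries and was highest in adipogenic cells, with 4.49, 2.75 and 4.66 RPKM with VD3 and 3.42, 4.35 and 3.58 RPKM with vehicle. At day 0 it had 1.51, 0.177 and 1.32 RPKM with VD3 and 1.48, 2.16 and 1.13 RPKM with vehicle, and in the 12 osteogenic libraries 0.036 to 0.568 RPKM. Treated and vehicle libraries overlapped in every state, and no VD3 difference passed. Smoc1 rose in adipogenic vehicle cells against osteogenic day 7 (log2 difference 2.00, SE 0.257, adjusted p = 8.29e-07) and against day 0 (0.90, adjusted p = 0.00347), the second lost at a pseudocount of 0.1 (1.24, adjusted p = 0.0656). Its falls against day 0 on osteogenic day 7 (-1.10, adjusted p = 0.000934) and day 15 (-0.98, adjusted p = 0.00196) started from values under the sensory receptor medians. With that background subtracted the values were 0 on day 7 (adjusted p = 1.0) and 0.037 on day 15 (adjusted p = 0.888).

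Counted over the set against day 0, some genes rose and some fell in osteogenic cells. Most fell in adipogenic cells, as did most of all tested genes. On osteogenic day 7 against day 0, in vehicle cells, 4 of the 9 tested genes rose (Tnc, Tnn, Thbs2, Sparc) and 4 fell (Thbs1, Postn, Smoc1, Smoc2), beside 64.0% of all tested genes called (13.6% higher and 50.4% lower). On osteogenic day 15, 4 rose (Tnc, Tnn, Thbs2, Sparc) and 3 fell (Thbs1, Smoc1, Smoc2), beside 70.9% (17.5% higher and 53.4% lower). On adipogenic day 7, 3 rose (Tnn, Tnc, Smoc1) and 6 fell, beside 78.6% (13.2% higher and 65.5% lower). The medians of the 9 genes were -0.17, 0.06 and -1.40 on the log2 scale, beside -0.46, -0.55 and -0.83 over all tested genes. With such backgrounds the share of genes called says little about the set. Under median-ratio rescaling the counts were 4 higher and 2 lower on osteogenic day 7 and 6 higher and 2 lower on day 15, and with background subtraction 4 higher and 1 lower on day 15. The median of all genes moved under rescaling, for osteogenic day 7 to -0.08 (median ratio) and 0.67 (background subtraction).

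The comparisons that leave day 0 aside had lower backgrounds. From osteogenic day 7 to day 15, Postn rose and Thbs1, Thbs2 and Sparc fell, 4 of 9 genes beside 13.3% of all genes called (6.87% higher and 6.47% lower). The differences of Tnn (-0.10, 95% interval -0.399 to 0.193), Fn1 (0.23, 95% interval -0.0551 to 0.511) and Smoc2 (0.09, 95% interval -0.0967 to 0.279) did not pass in vehicle cells, nor did that of Smoc1 (0.11, 95% interval -0.389 to 0.618). Among VD3-treated cells 7 of 9 passed, beside 16.7% of all genes (7.31% higher and 9.43% lower), with Fn1 (-0.63, adjusted p = 0.0034) and Smoc2 (-0.49, adjusted p = 0.000726) falling. Between adipogenic and osteogenic day 7 vehicle cells, 1 of 9 genes was higher in adipogenic cells (Smoc1) and 7 were lower, beside 37.8% of all genes (12.4% higher and 25.4% lower). The median of the 9 genes was -2.49, beside 0.02 over all genes, with Thbs2 (-3.79, adjusted p = 1.18e-21), Fn1, Smoc2, Thbs1 (-2.58, adjusted p = 2.03e-17) and Sparc (-2.15, adjusted p = 1.64e-14) each more than 2 lower on the log2 scale. In the same contrast, 7 of 8 osteoblast markers were lower and 8 of 8 adipocyte markers higher in adipogenic cells.

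**Figure D2:**
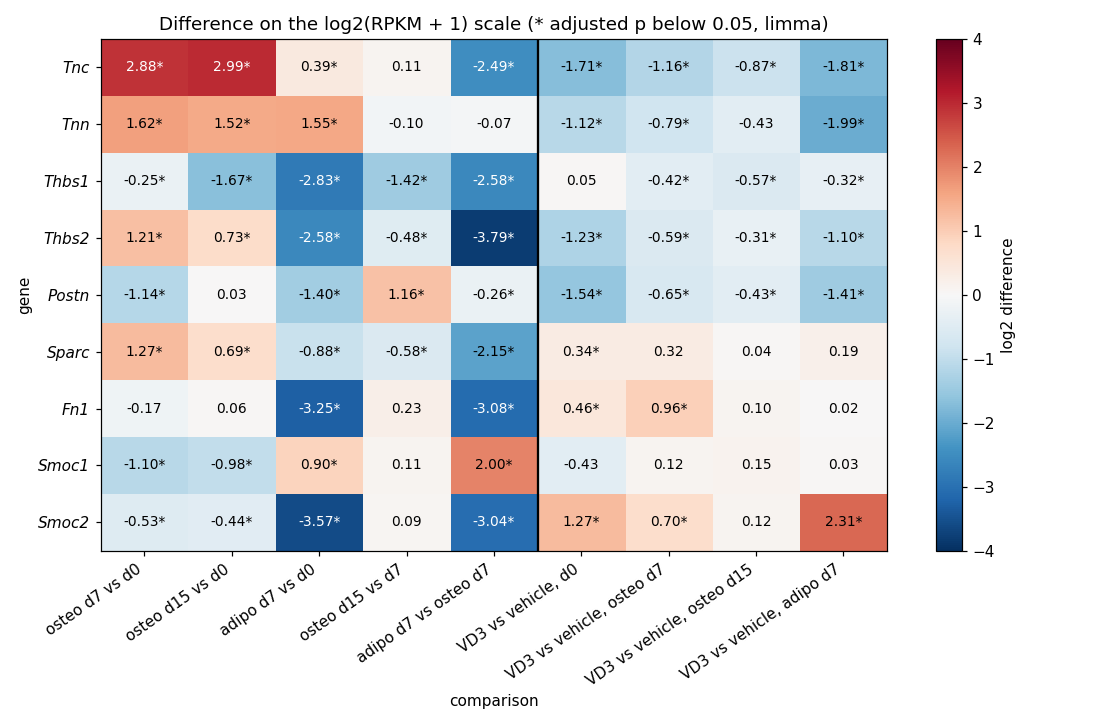
Log2 difference, tested over its comparison group, of the 9 tested genes (rows) in 5 comparisons of states in vehicle cells and 4 comparisons of VD3 with vehicle (columns); colour gives the sign and size and an asterisk an adjusted p below 0.05 in limma. In the VD3 columns Tnc, Thbs2 and Postn are below 0 with an asterisk in all 4 states, and Smoc2 is above 0 with one in 3.

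Under VD3, Tnc, Thbs2 and Postn fell in 4 states, Tnn and Thbs1 in 3, and Smoc2 rose in 3. At day 0, 3 of 9 genes rose (Sparc, Fn1, Smoc2) and 4 fell (Tnc, Tnn, Thbs2, Postn), beside 15.0% of all genes called (3.98% higher and 11.0% lower). On osteogenic day 7, 2 rose (Fn1, Smoc2) and 5 fell, beside 5.26% (2.91% higher and 2.35% lower). On osteogenic day 15, 0 rose and 4 fell (Tnc, Thbs1, Thbs2, Postn), beside 0.773% (0.526% higher and 0.246% lower). On adipogenic day 7, 1 rose (Smoc2) and 5 fell, beside 2.08% (1.51% higher and 0.574% lower). As above, the shares are over 21097 genes, many of them low outside day 0, and are not matched to the levels of the set. The medians of the 9 genes were -0.43, -0.42, -0.31 and -0.32 in that order, beside -0.27, 0.07, 0.02 and 0.05 over all genes. Under quantile normalization the counts were 1 higher and 4 lower at day 0 and 3 higher and 4 lower on osteogenic day 7. The count of day 15 was the least firm and came to 1 (Tnc) under median-ratio rescaling. Without day 15 vehicle replicate 1 or 2, or day 15 VD3 replicate 1 or 2, it was 2. Of the 24 VD3 calls on these genes, 15 held in every alternative and without each library in turn.

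Some osteoblast markers fell with VD3 beside the tenascins and Postn, foremost Ibsp (bone sialoprotein). Of the 8 markers, 4 fell at day 0, 2 on osteogenic day 7, 1 on day 15 and 2 on adipogenic day 7, and none rose. In that order, 11.0%, 2.35%, 0.246% and 0.574% of all tested genes fell. Background limits the day 0 falls and the day 0 sums of 8 markers below. Sensory receptor medians at day 0 were 4.17, 3.5 and 4.94 RPKM a gene with vehicle and 4.45, 0.457 and 3.38 RPKM with VD3. The summed level of 8 osteoblast markers was 18.6 to 21.0 RPKM with VD3 against 30.2 to 37.7 RPKM with vehicle at day 0, and 334 to 376 RPKM with VD3 against 544 to 569 RPKM with vehicle on osteogenic day 7. The day 15 sum was 333 to 363 RPKM with VD3 against 673 to 751 RPKM with vehicle, and that of adipogenic day 7 was 26.1 to 33.8 RPKM with VD3 against 122 to 144 RPKM with vehicle. Ibsp made much of these sums: it averaged 89.2 ± 15.6 RPKM with VD3 and 264 ± 11.9 RPKM with vehicle on osteogenic day 7, 238 ± 14.3 RPKM with VD3 and 596 ± 40.1 RPKM with vehicle on day 15, and 3.23 ± 0.404 RPKM with VD3 and 104 ± 7.89 RPKM with vehicle on adipogenic day 7 (SD, n = 3 each). On osteogenic day 7 the differences of Bglap (0.56, adjusted p = 0.354), Bglap2 (0.50, adjusted p = 0.458) and Alpl (0.21, adjusted p = 0.655) were above 0 and did not pass. The summed level of 8 adipocyte markers was 443 to 458 RPKM with VD3 against 328 to 358 RPKM with vehicle at day 0, 183 to 204 RPKM with VD3 against at most 139 RPKM with vehicle on osteogenic day 7, and 45.2 to 49.5 RPKM with VD3 against 40.5 to 42.3 RPKM with vehicle on day 15, and overlapped on adipogenic day 7. Of these 8, Lpl (lipoprotein lipase) rose and 3 fell at day 0, beside 3.98% of all genes higher and 11.0% lower. Lpl rose on osteogenic day 7, beside 2.91% higher, and none passed on day 15 or adipogenic day 7. The summed marrow stromal markers were 575 to 626 RPKM with VD3 against about 1120 RPKM with vehicle at day 0, overlapped on osteogenic days 7 and 15, and were 57.7 to 61.1 RPKM with VD3 against 74.4 to 89.6 RPKM with vehicle on adipogenic day 7. Cxcl12 made most of the day 0 vehicle sum. Of 6 stromal markers tested, 3 fell at day 0 and 1 on adipogenic day 7, beside 11.0% and 0.574% of all genes. Another count was 1 rise on osteogenic day 7, beside 2.91%. Macrophage, endothelial, chondrocyte, tendon and muscle marker lists summed to at most 21.5 RPKM in any library. The part of these marker levels in the VD3 differences was not tested.

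**Figure D3:**
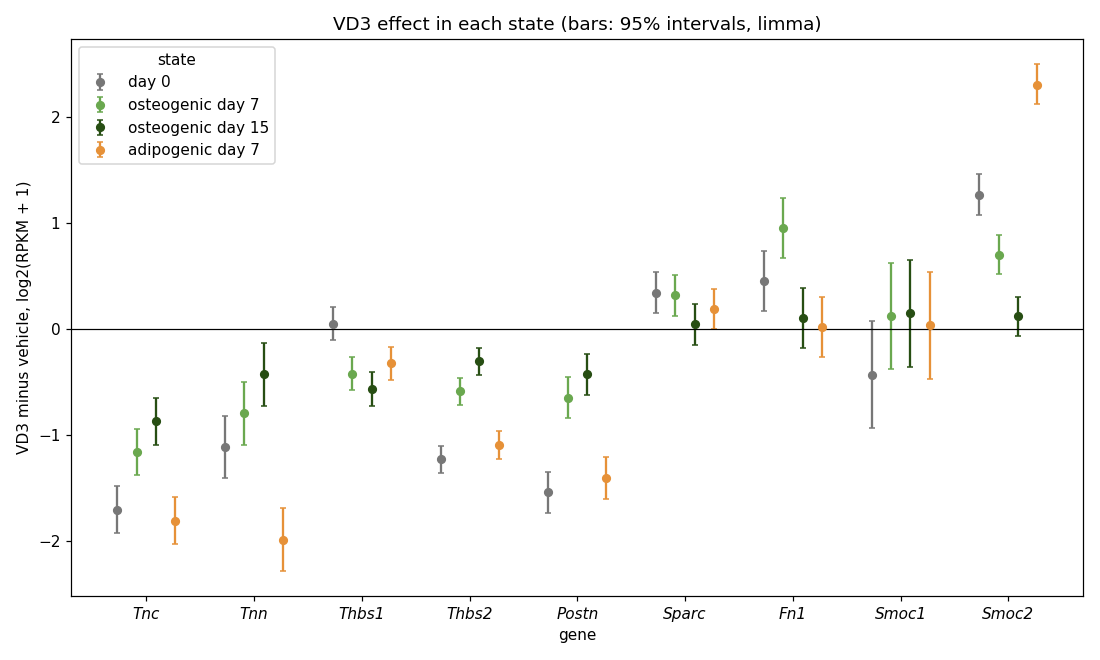
Log2 difference of VD3-treated minus vehicle cells (vertical axis, log2(RPKM + 1) scale) of the 9 tested genes in each of 4 states; points are limma estimates and bars are 95% intervals (1.96 standard errors). For Tnc, Tnn, Thbs2 and Postn the points of day 0 and adipogenic day 7 lie below those of the osteogenic days, and the highest point of the plot is Smoc2 on adipogenic day 7.

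The size of the VD3 difference was itself compared between states with interaction terms. Thbs2 and Postn fell less on osteogenic day 7 than at day 0, by 0.64 (adjusted p = 0.000374) and 0.89 (adjusted p = 0.000751). The VD3 difference was lower on osteogenic day 7 than at day 0 for Thbs1 (-0.47, adjusted p = 0.0316) and Smoc2 (-0.57, adjusted p = 0.0295). These 4 of 9 genes stand beside 2.55% of all genes called (1.85% higher and 0.702% lower) and a median of 0.32 over all tested genes. They depended on scaling: under median-ratio rescaling Thbs2 (0.28, adjusted p = 0.413) and Postn (0.53, adjusted p = 0.223) did not pass, which left 0 higher and 2 lower, against 3 higher and 1 lower under quantile normalization. The Thbs1 call was lost under quantile normalization (-0.19, adjusted p = 0.538), plain empirical Bayes (adjusted p = 0.0598) and a narrow fit (adjusted p = 0.134), and on leaving out day 0 vehicle replicate 3, day 0 VD3 replicate 2, any osteogenic day 7 vehicle library or osteogenic day 7 VD3 replicate 3 (adjusted p = 0.0514 to 0.0811). The Smoc2 call was lost at a pseudocount of 0.1 (-0.57, adjusted p = 0.127), and without any day 0 vehicle library, day 0 VD3 replicate 2, osteogenic day 7 vehicle replicate 1 or 3 or osteogenic day 7 VD3 replicate 3 (adjusted p = 0.0509 to 0.0737). For Tnc the difference was 0.54 (adjusted p = 0.0715), and it passed under quantile normalization (0.95, adjusted p = 0.000633), background subtraction (1.5, adjusted p = 0.0111) and a pseudocount of 0.1 (0.80, adjusted p = 0.0336) and without day 0 VD3 replicate 1 (0.65, adjusted p = 0.0217).

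Between the media on day 7, 6 of 9 genes differed in their VD3 response, beside 1.82% of all genes (0.967% higher and 0.853% lower). Against osteogenic cells, the adipogenic difference was higher for Smoc2 (1.61, adjusted p = 2.31e-07). It was lower for Tnn (-1.20, adjusted p = 0.00267), Fn1 (-0.93, adjusted p = 0.0151), Postn (-0.76, adjusted p = 0.0034), Tnc (-0.65, adjusted p = 0.0372) and Thbs2 (-0.51, adjusted p = 0.0034). Under median-ratio rescaling 2 of the 6 calls were left, those of Tnn and Smoc2. The Tnc call was lost without osteogenic vehicle replicate 1 or 2, osteogenic VD3 replicate 3, adipogenic vehicle replicate 2 or 3 or adipogenic VD3 replicate 2 or 3 (adjusted p = 0.0828 to 0.104). Background subtraction (-0.89, adjusted p = 0.273) and plain empirical Bayes (adjusted p = 0.0884) also ended it. Without adipogenic VD3 replicate 2 the Fn1 call was lost as well (-0.87, adjusted p = 0.0529), as it was in a narrow fit (adjusted p = 0.0883). Against day 0, the adipogenic VD3 difference was higher for Smoc2 (1.04, adjusted p = 5.61e-05) and lower for Tnn (-0.87, adjusted p = 0.024), 2 of 9 genes beside 3.47% of all genes (2.46% higher and 1.01% lower). The median of all tested genes in this contrast was 0.31. The Tnn call was lost in 4 alternatives (adjusted p = 0.0588 to 0.142), and on leaving out day 0 vehicle replicate 1 or 2, day 0 VD3 replicate 3, adipogenic vehicle replicate 3 or adipogenic VD3 replicate 2 (adjusted p = 0.0532 to 0.0716). Between osteogenic days 15 and 7, limma called 0 of 9 genes, beside 0.185% of all genes (0.0521% higher and 0.133% lower), and 3 had an unadjusted p below 0.05. Fn1 (-0.85, adjusted p = 0.0855) and Smoc2 (-0.58, adjusted p = 0.0794) passed without adipogenic vehicle replicate 2 (adjusted p = 0.00473 and 0.0283) and at a filter of 5 RPKM (adjusted p = 0.0476 and 0.0386), and Fn1 also in a narrow fit (adjusted p = 0.0437). The differences of the other tested genes between these days did not pass.

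Among relatives of these genes, Tgfbi fell with VD3 in 3 states, least firmly on osteogenic day 15. Of 10 family relatives (other tenascin, thrombospondin, SPARC-like and periostin-like genes), 8 were tested. Tgfbi, a secreted relative of periostin, fell with VD3 at day 0 (-1.22, adjusted p = 2.2e-06) and on osteogenic days 7 (-0.73, adjusted p = 0.00186) and 15 (-0.60, adjusted p = 0.0467). Its day 15 call was lost in every alternative run on it except the filter of 5 RPKM, the replicate block among them, and its osteogenic day 7 call was lost at a pseudocount of 0.1. Tgfbi averaged 13.3 ± 0.961 RPKM with VD3 and 32.3 ± 1.40 RPKM with vehicle at day 0 (SD, n = 3 each). Sparcl1 (-0.57) and the BMP-binding Fstl1 (-0.57, adjusted p = 1.18e-05) also fell at day 0, which makes 3 of 8, against 1, 1 and 0 of 8 on osteogenic days 7 and 15 and adipogenic day 7, and none rose. Of all genes, 11.0%, 2.35%, 0.246% and 0.574% fell in these states. Thbs3 and Thbs4, the pentameric thrombospondins, did not pass in any state with VD3. Between states Tgfbi fell in vehicle cells by 1.24 on osteogenic day 7, by 2.98 on day 15 and by 4.43 on adipogenic day 7 against day 0.

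Of 20 receptors for these proteins, all tested, 4 rose and 7 fell with VD3 at day 0, 4 rose and 3 fell on osteogenic day 7, 0 rose and 1 fell on day 15, and 4 rose and 1 fell on adipogenic day 7, beside 15.0%, 5.26%, 0.773% and 2.08% of all genes called in these states. Under median-ratio rescaling 4 rose and 2 fell at day 0, 0 rose and 2 fell on osteogenic day 7, 0 passed on day 15, and 3 rose and 0 fell on adipogenic day 7. Cacna2d1, a calcium channel subunit that binds thrombospondins, rose at day 0 (1.43, adjusted p = 3.5e-10), on osteogenic day 7 (0.55, adjusted p = 0.000585) and on adipogenic day 7 (1.15, adjusted p = 3.4e-08). At day 0 it averaged 35.7 ± 2.43 RPKM with VD3 and 12.6 ± 0.678 RPKM with vehicle. Sdc2, a heparan sulfate proteoglycan of the cell surface, fell at day 0 (-1.02, adjusted p = 9.82e-10), on osteogenic day 7 (-0.55, adjusted p = 1.77e-05), on day 15 (-0.42, adjusted p = 0.00246) and on adipogenic day 7 (-0.38, adjusted p = 0.00292). Itga8, an integrin subunit that binds tenascins and fibronectin, rose on adipogenic day 7 (1.59, adjusted p = 2.11e-05), with 3.71 ± 0.229 RPKM with VD3 and 0.569 ± 0.129 RPKM with vehicle. Between media, Cd36, a thrombospondin receptor that also takes up fatty acids, was higher in adipogenic than in osteogenic day 7 vehicle cells by 9.92 (adjusted p = 1.08e-19), while 13 of 20 receptors were lower, beside 25.4% of all genes.

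Of 17 matrix partners, 16 were tested. With VD3, 4 rose and 6 fell at day 0, 2 rose and 1 fell on osteogenic day 7, 0 rose and 2 fell on day 15, and 5 rose and 2 fell on adipogenic day 7, beside the same shares of all genes. Under median-ratio rescaling 5 rose and 4 fell at day 0, 1 rose and 1 fell on osteogenic day 7, 0 passed on day 15, and 4 rose and 1 fell on adipogenic day 7. Col6a1, a chain of the microfibrillar collagen VI, fell at day 0 (-1.76, adjusted p = 3.83e-12; 66.2 ± 6.73 RPKM with VD3 and 226 ± 8.05 RPKM with vehicle) and, less far from 0, on osteogenic days 7 (-0.53) and 15 (-0.41) and on adipogenic day 7 (-0.44, adjusted p = 0.00462). Tgm2, a crosslinking transglutaminase that binds fibronectin, rose at day 0 (0.94, adjusted p = 1.19e-08), on osteogenic day 7 (0.51, adjusted p = 0.000148) and on adipogenic day 7 (0.67, adjusted p = 5.24e-06). On adipogenic day 7 the proteoglycan Vcan fell (-1.03, adjusted p = 1.5e-06), and Col1a1 (0.98, adjusted p = 9.62e-05) and Fbn1 (0.95, adjusted p = 2.46e-08) rose. In vehicle cells 9 partners rose and 1 fell on osteogenic day 7 against day 0, beside 13.6% and 50.4% of all genes, with the largest values for Dcn (3.69) and Col1a1 (2.12). From osteogenic day 7 to day 15, 1 rose and 13 of 16 fell, beside 6.87% and 6.47% of all genes. Between adipogenic and osteogenic day 7, 15 of 16 were lower in adipogenic cells, beside 25.4% of all genes, led by Fbn1 (-4.84), Col3a1 (-4.55) and Dcn (-4.31). Several day 0 levels of relatives and receptors with falls in the osteogenic comparisons were a few RPKM: Spock1 averaged 4.87 ± 0.958 RPKM and Itga4 4.59 ± 0.886 RPKM in day 0 vehicle cells, near the sensory receptor medians. With the background subtracted, limma called 1 fall among family relatives on osteogenic day 7, against 5 without the subtraction.

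**Figure D4:**
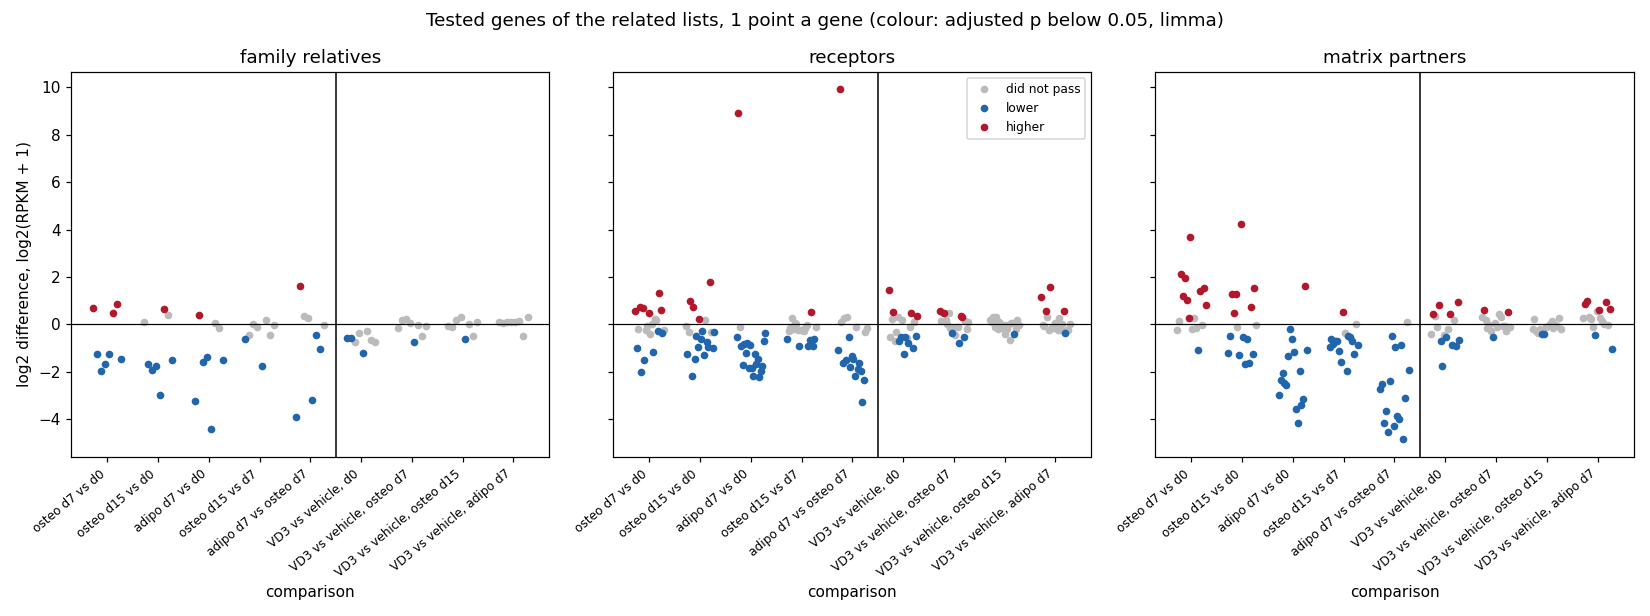
Log2 difference (vertical axis, log2(RPKM + 1) scale) of the tested family relatives, receptors and matrix partners in 5 comparisons of states and 4 of VD3 with vehicle; each point is a gene, red for higher and blue for lower at an adjusted p below 0.05 in limma, grey for not passed. Matrix partners lie mostly above 0 on osteogenic day 7 against day 0 and below 0 in both adipogenic comparisons, and the points far above the rest in the receptor panel are Cd36.

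The genes whose levels ran most like each member over the 24 libraries are given as a description, since libraries of a group and of a depth move together. By Pearson r of log2(RPKM + 1) among 4025 genes, Tnc ran with Has2, a hyaluronan synthase (0.960), and Ibsp, bone sialoprotein (0.956), and Tnn with Ibsp (0.943) and Tnc (0.874). Thbs1 ran with Nrp1 (0.991) and Cyp1b1 (0.984), and Thbs2 with the cytoskeletal genes Tpm1 (0.989) and Vim (0.987). Postn ran with Tgfbr1 (0.925) and P4ha2 (0.851), P4ha2 coding for a collagen prolyl hydroxylase subunit. Sparc ran with Col1a1 (0.979), Fn1 with Pdgfra (0.984) and Aebp1 (0.983), and Smoc2 with Mr1 (0.961) and Pdlim2 (0.950). Within the set, Thbs2 ran with Sparc (0.87) and Fn1 (0.85), and Smoc1 ran against Sparc (-0.91) and Thbs2 (-0.89).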

How the data were processed

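RNA-seq of 24 libraries in 8 groups of 3 was used. The deposited values are RPKM, 1 value per transcript, computed by the authors; reads were aligned with TopHat to mm9, per the submitters' processing notes, and the counting tool, annotation and filters are not given in the sources used here. Of 30795 transcripts, 40 whose symbols had become dates were left out and the rest were summed by symbol, giving 25385 genes. Smoc1 has 2 transcripts and each other member has 1. Depth was estimated per library from 150 low values of olfactory receptor genes (900 to 1000 bases long), with 98.0 to 100% whole multiples of 1 read (tolerance 0.1); 3 reads on 1 kilobase correspond to 0.065 to 0.423 RPKM. Within a group, libraries had Pearson r of 0.926 to 0.993, and 0 pairs held identical values.

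The 21097 genes that reached 1 RPKM in 3 or more libraries were fitted on log2(RPKM + 1) by limma 3.58.1 (R 4.3.3) over all 8 groups, with empirical Bayes (trend and robust) and Benjamini-Hochberg adjustment within each of 13 comparisons over all genes tested, at a threshold of 0.05. Intervals are 1.96 standard errors. The script was tested on simulated data. Tables and figures were made with numpy 2.4.6, matplotlib 3.10.9 and pandas 2.3.3 under Python 3.11.15. Alternatives were no filter, a filter of 5 RPKM, a pseudocount of 0.1, median-ratio rescaling, quantile normalization, subtraction of each library's sensory receptor median, a replicate block, plain empirical Bayes, a narrow fit of the compared libraries, the largest transcript, VD3-treated in place of vehicle libraries (also with replicate 2 as the only treated library of day 0) and leaving out each library. The rule was to name the 10 genes in every comparison (Tnxb, not tested, has levels only, and differences that did not pass are in part given as counts) and at most the 3 largest called genes of each related list; named after their values were seen were Thbs3 and Thbs4, the markers Pdgfra, Cxcl12, Thy1 and Eng, Sdc2, Col6a1 and Tgm2 on adipogenic day 7, and Bglap, Bglap2, Alpl, Ibsp and Lpl among the markers. Members and lists were chosen with earlier results of these data known.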

Additional observations from a re-analysis of the deposited data

Results flagged for a closer look

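The VD3 response of several genes differed between states by the test of the interaction term in limma, which is why they are listed here. Values are differences of log2 differences, and no cause was tested. On osteogenic day 7 minus day 0, Thbs1 had -0.47, Thbs2 0.64, Postn 0.89 and Smoc2 -0.57, beside a median of 0.32 over all tested genes. The fall of Thbs2 and Postn was smaller and the rise of Smoc2 was smaller on osteogenic day 7, while Thbs1 fell there and did not pass at day 0. On adipogenic day 7 minus day 0, Tnn had -0.87 and Smoc2 1.04, a larger fall and a larger rise in adipogenic cells. The median over all tested genes was 0.31 here. On adipogenic minus osteogenic day 7, Tnc had -0.65, Tnn -1.20, Thbs2 -0.51, Postn -0.76, Fn1 -0.93 and Smoc2 1.61. Of these, the 2 Smoc2 values that involve adipogenic cells and the Tnn value of the last contrast passed in every alternative and without each library in turn.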

How the results depend on the processing

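Of 72 calls on the 9 tested genes in 13 comparisons, 44 held in all 24 fits without 1 library and in each of the 12 alternatives that applied to them. Those with VD3-treated in place of vehicle libraries apply only to comparisons of states. Day 0 libraries, most of them of low depth and raised background, limit the comparisons with day 0, and scaling moves them: the median of all genes on osteogenic day 7 against day 0 was -0.46, and -0.08, 0.03 and 0.67 under median-ratio rescaling, quantile normalization and background subtraction. For the values below the cause was not tested. The check did not find that replicate numbers pair the samples: same-numbered VD3 and vehicle deviations within a state correlated at -0.095 to 0.166, and those of all 84 same-numbered pairs of libraries at -0.352 to 0.444, with 13 over 0.1; the replicate block kept 71 of 72 calls and lost Thbs1 with VD3 on adipogenic day 7 (-0.32, adjusted p = 0.0558).

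Under median-ratio rescaling 15 calls were lost. Signs turned for Thbs1 (0.18) and Fn1 (0.26) on osteogenic day 7 against day 0, Tnn between media (0.12), Fn1 (-0.064) and Smoc1 (-0.036) with VD3 in adipogenic cells, and, for VD3 effects, Tnn on osteogenic day 7 minus day 0 (-0.0014) and Thbs2 and Postn on adipogenic day 7 minus day 0 (-0.21 each). Counts were 1 of 9 for VD3 on day 15, 2 for the VD3 effect on osteogenic day 7 minus day 0 and 2 for adipogenic minus osteogenic day 7. Under quantile normalization signs turned for Postn (-0.16), Fn1 (-0.084) and Smoc1 (0.11) on day 15 against day 0, Tnn between media (0.10), Thbs1 (-0.085) with VD3 at day 0 and Smoc1 (-0.042) in adipogenic cells, and, for VD3 effects, Sparc on osteogenic day 7 minus day 0 (0.37), Tnc (0.32) and Smoc1 (-0.037) on adipogenic day 7 minus day 0, Smoc1 on day 15 minus day 7 (-0.027) and Thbs1 between media (-0.055). Counts were 2 for VD3 on day 15 and 1 for the effect on adipogenic day 7 minus day 0. Background subtraction turned Smoc1 on day 15 against day 0 (0.037), with VD3 in adipogenic cells (-0.080) and in the effect minus day 0 (-0.080), and Tnc in that effect (0.61); both counts just named were 1. In place of vehicle, VD3-treated libraries gave Fn1 0.33 and -0.30 on osteogenic days 7 and 15 against day 0 and Tnn 0.26, Fn1 -0.63 and Smoc2 -0.49 on day 15 against day 7, where 7 genes passed. With day 0 VD3 replicate 2 alone, Fn1 had 0.22 and -0.41 and Smoc1 0.15 and 0.29 on osteogenic days 7 and 15. Counts for VD3 on day 15 were 2 under plain empirical Bayes and 2 in the narrow fit, which also gave 1 for the effect on adipogenic day 7 minus day 0 and 1 for day 15 minus day 7. These were 1 at a pseudocount of 0.1 and 2 at a filter of 5 RPKM. The largest transcript turned Smoc1 between media (0.18).

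Without each library in turn, counts were 2 to 4 for VD3 on day 15, 2 to 5, 1 to 3, 0 to 2 and 4 to 6 for the VD3 effects on osteogenic day 7 minus day 0, adipogenic day 7 minus day 0, osteogenic day 15 minus day 7 and between media. Values that crossed 0 were Postn (-0.026 to 0.092) and Fn1 (-0.0046 to 0.12) on day 15 against day 0, Thbs1 with VD3 at day 0 (-0.0057 to 0.085), Smoc1 with VD3 on osteogenic day 7 (-0.012 to 0.25), Sparc on day 15 (-0.070 to 0.13), Fn1 (-0.13 to 0.29) and Smoc1 (-0.072 to 0.22) in adipogenic cells, and, for VD3 effects, Sparc on osteogenic day 7 minus day 0 (-0.084 to 0.042), Tnc on adipogenic day 7 minus day 0 (-0.27 to 0.0063) and Smoc1 on day 15 minus day 7 (-0.10 to 0.16) and between media (-0.22 to 0.10). None of these passed.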
